A study of Mus musculus with 15 samples.

Results

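Microglia taken from wild-type mouse brain 6 days after stroke were compared, gene by gene, with microglia taken 1 day after it. The comparison used 2 of the 15 samples of the series, 1 library for each day, and all 24421 genes of the deposited count table. Microglia are the resident macrophages of the brain. Both libraries came from male C57BL/6J mice, 8 to 24 weeks old, in which the middle cerebral artery was closed for 60 minutes with a filament and then reopened, and in both the sorted cells were those with intermediate CD45 and CD11b staining. A wild-type sham library, from mice given the surgery without occlusion, is given as the uninjured level. Values of other day 6 libraries stand beside some genes: 3 replicates of Yy1flox/flox mice, which carry the floxed Yy1 gene without Cre, and 1 library each of EGFP+ and EGFP- cells from Igf1-Egfp transgenic mice. The labels do not say how many mice gave each wild-type library, which hemisphere the cells came from or how large the infarcts were.

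With 1 library per day no test of the difference between the days was possible, and the spread between mice at either day is unknown. The day 6 library held 42540352 counts and the day 1 library 46385868. Levels are given in CPM, a gene's counts per 1e6 counts of its library, after scaling by the trimmed mean of M-values (TMM). The ratio of a gene is log2 of (day 6 CPM + 1) over (day 1 CPM + 1), so a positive value is a higher level on day 6. The 7237 genes with at least 20 CPM in 1 of the 2 libraries were considered when genes were counted, and a list's median is over its members with at least 5 CPM in 1 of them. Genes counted as at least 2-fold or 4-fold apart had a ratio, with the added 1, of at least 1 or 2 in size. Either minimum could be passed through 1 day alone, which favours large ratios among members of low level. A fold printed for a single gene is that of the 2 CPM values without the added 1, and its 95% interval (exact binomial, on the deposited counts divided by 2) covers counting error only.

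After a stroke, microglia near the infarct first meet dying cells, blood-borne leukocytes and free iron and heme, and take on an inflammatory state. In the following days they multiply, clear debris and release growth factors such as IGF1. Their resting identity is kept by transcription factors including SALL1 and PU.1 under TGF-beta and CSF1 receptor signals, and is read from genes such as P2ry12 and Tmem119, which injury lowers.

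Most genes lay close between the days: 85.2% of the considered genes were within 2-fold, the median ratio was -0.01, and the quartiles were -0.36 and 0.37. At 4-fold or more, 163 genes stood higher on day 6, which is 2.25% of those considered, and 116 stood lower, which is 1.60%. At 2-fold or more, 623 genes (8.61%) stood higher and 449 genes (6.20%) stood lower. Counts of list members below are to be read beside these shares, and some lie near them. The highest ratio was that of Apoe (chr7:19696109-19699188, minus strand), the lipid carrier made by astrocytes and activated microglia, with 6183 CPM on day 6 against 195 CPM on day 1, a 31.8-fold difference (interval 30.9 to 32.7). Its level was 130.3 CPM in the sham library, so day 1 lay nearer to sham than day 6 did. The Yy1flox/flox mice of day 6 had 3414 ± 134 CPM of Apoe (SD, n = 3). Gene coordinates are those of GENCODE M21 on GRCm38. At the other end stood Slc7a11 (chr3:49892526-50443614, minus strand), the cystine importer that feeds glutathione synthesis, with 6.75 CPM on day 6 against 568 CPM on day 1, 84.2-fold lower (interval 71.8 to 99.6). The sham library had 5.85 CPM of Slc7a11 and the Yy1flox/flox mice of day 6 had 6.64 ± 4.13 CPM, so its high level was seen in the day 1 library and in none of these others.

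**Figure D1:**
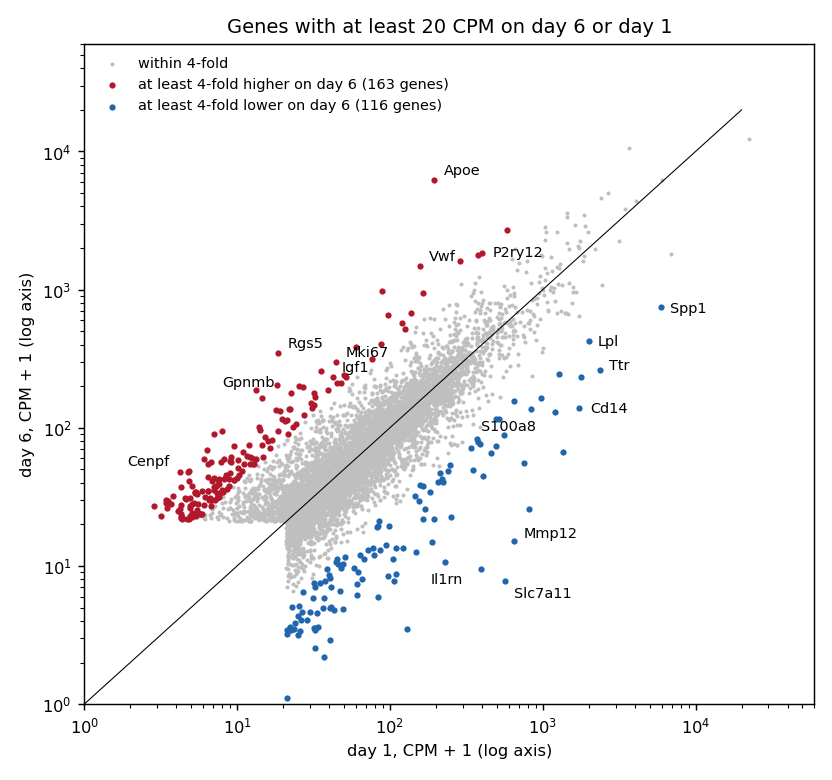
Levels of the considered genes in the day 6 library (vertical axis, CPM + 1, log scale) against the day 1 library (horizontal axis, CPM + 1, log scale). Each point is a gene and the diagonal marks equal levels. The 163 genes at least 4-fold higher on day 6 are red and the 116 at least 4-fold lower are blue. Apoe lies highest above the diagonal and Slc7a11 lowest below it.

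The labelled cell type was carried by both libraries: P2ry12, Tmem119, Cx3cr1, Sall1 and the other markers of homeostatic microglia were present at high counts. RNA of other cells was present too and differed between the days. In a bulk sample, fewer cells of a type and less RNA per cell cannot be told apart. Endothelial genes were the clearest case. All 16 considered endothelial markers stood at least 4-fold higher on day 6. The other 4 of the 20 listed stayed below 20 CPM, and a member could pass that minimum through day 6 alone. The median ratio was 2.80 over 19 genes, against -0.01 over all 10947 genes with 5 CPM. Over all 20 genes the summed level was 4522 CPM on day 6 and 558 CPM on day 1, and 417 CPM in the sham library. The other day 6 libraries lay nearer to the day 1 sum, with 938 CPM in EGFP- cells, 737 CPM in EGFP+ cells and 978 to 1322 CPM in the Yy1flox/flox mice. Vwf, the clotting factor carrier stored by endothelium, had 1475 CPM on day 6 and 156 CPM on day 1. Pecam1, which encodes the CD31 protein the cells were stained for, had 232 CPM on day 6 and 51.0 CPM on day 1.

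Of the 12 genes with the highest ratios, Rgs5 of pericytes and the endothelial genes Clec14a, Tie1, Tek, Adgrl4 and Ptprb are known from vessels. Tek, the angiopoietin receptor, had 163 CPM on day 6 against 13.5 CPM on day 1, and Rgs5 had 346 CPM on day 6 against 17.6 CPM on day 1. In the Yy1flox/flox mice of day 6, Rgs5 was 16.3 ± 24.8 CPM (SD, n = 3), so it varied widely there. The other 5 genes after Apoe were Itm2a with a ratio of 3.82, the chemokine gene Cxcl12 with 3.49, Fam171a1 with 3.45, the macrophage-secreted protein gene Cd5l with 3.34 and the kinetochore gene Cenpf with 3.33. Cxcl12 is also made by vascular and stromal cells, and the cell source of these 5 genes was not tested. A second list of 44 endothelial genes, chosen after its values were seen, held 32 genes at least 4-fold higher among 43 considered. Together the endothelial lists and the list of mural cells and fibroblasts held 50 of the 163 genes at least 4-fold higher on day 6, 30.7%. Of those 50, 32 came from the list chosen after its values were seen, so this share is a description.

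Mural and fibroblast markers had a median ratio of 0.89, with 2 of 12 considered genes at least 4-fold higher. Their sum was 1981 CPM on day 6 and 1297 CPM on day 1, against 113 CPM in sham, so both stroke libraries lay above sham. Vtn, the vitronectin gene of pericytes, had 42.9 CPM on day 6 and 5.45 CPM on day 1. Acta2, smooth muscle actin, had 251 CPM on day 6 and 317 CPM on day 1.

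Neutrophil and monocyte markers stood lower in the wild-type day 6 library. Of 11 considered neutrophil genes, 10 stood at least 4-fold lower on day 6, and the sum over all 17 listed genes was 898 CPM on day 6 and 2711 CPM on day 1, against 713 CPM in sham. The EGFP- cells of day 6 had a sum of 12847 CPM, above the wild-type day 1 library, while EGFP+ cells had 445 CPM and the Yy1flox/flox mice 836 to 921 CPM. S100a8, a subunit of the neutrophil protein calprotectin, had 73.0 CPM on day 6 and 490.3 CPM on day 1. Csf3r, the G-CSF receptor gene on the same list, stood higher on day 6 with 462 CPM on day 6 against 189.7 CPM on day 1, and sham had 654 CPM. At 0 counts were 2 of the 17 neutrophil genes on day 6 and 0 on day 1. Monocyte markers had a median ratio of -2.19, with 5 of 8 considered genes at least 4-fold lower. Their sum of 1587 CPM on day 6 and 2906 CPM on day 1 was carried largely by 2 matrix genes. Fn1, fibronectin, had 1361 CPM on day 6 and 1142 CPM on day 1, and Thbs1, thrombospondin, had 129.7 CPM on day 6 against 1199 CPM on day 1. The monocyte sum was 6560.0 CPM in EGFP- cells and 3256 CPM in EGFP+ cells of day 6, both above the wild-type day 1 library, and 999.9 to 1426 CPM in the Yy1flox/flox mice. Defining monocyte genes were low: Ly6c2 had 3.60 CPM on day 6 and 10.5 CPM on day 1, and Ccr2 had 14.2 CPM on day 6 against 51.1 CPM on day 1. Neutrophil and monocyte markers made up 15 of the 116 genes at least 4-fold lower on day 6, 12.9%.

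Genes of the choroid plexus epithelium, which makes cerebrospinal fluid, were high in the day 1 library. This list was made after its values were seen, so its counts are a description. All 19 considered members stood at least 4-fold lower on day 6, and they were 16.4% of the genes in that class. The other 11 of the 30 listed stayed below 20 CPM. Members could pass that minimum through day 1 alone, so the count is tilted toward genes high on day 1. Ttr, transthyretin, had 262 CPM on day 6 and 2378 CPM on day 1, while sham had 305 CPM and the Yy1flox/flox mice of day 6 had 1.93 ± 0.462 CPM. Kl, the Klotho gene, had 20.8 CPM on day 6 and 165 CPM on day 1. Among the 12 lowest genes is 1 member of this list, the bicarbonate transporter gene Slc4a5, with 1.90 CPM on day 6 and 39.4 CPM on day 1. How much these cells contributed to the genes described next was not tested. The vascular, leukocyte or choroid plexus lists are named again for some of the genes shared with them.

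**Figure D2:**
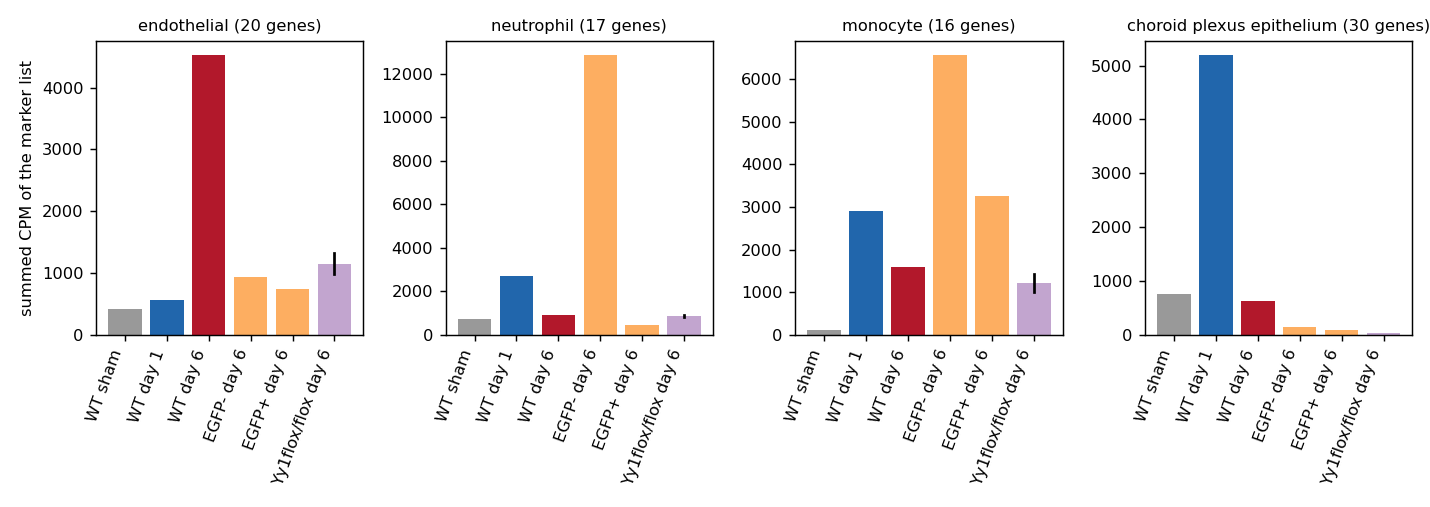
Summed level (CPM, linear axis from 0) of 4 marker lists in the libraries, with 20 endothelial, 17 neutrophil, 16 monocyte and 30 choroid plexus genes. Bars are single libraries, except that the Yy1flox/flox bar is the midpoint of 3 replicates with a line from the lowest to the highest. Among the libraries drawn, the endothelial sum is highest in the wild-type day 6 library at 4522 CPM. The choroid plexus sum is highest among them in the wild-type day 1 library at 5189 CPM. The neutrophil and monocyte sums are highest among them in the EGFP- cells of day 6. The wild-type libraries of day 14 and day 28 are not drawn, and their sums are not given.

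Markers of further cell types differed in level. Marker sums of neurons were 47.6 CPM on day 6 and 16.5 CPM on day 1, and Rbfox3 was at 3.98 CPM on day 6 against 0.605 CPM on day 1. Markers of T and NK cells summed to 26.9 CPM on day 6 and 17.7 CPM on day 1, with 70.4 CPM in sham. The T-cell gene Cd3e had 0 counts on both days. Markers of the oligodendrocyte lineage summed to 239 CPM on day 6 and 97.7 CPM on day 1, with 83.6 CPM in sham. All 4 considered members had a higher value on day 6, 2 by at least 2-fold and 1 by at least 4-fold, while the myelin gene Mog was at 0.134 CPM on day 6 against 0.121 CPM on day 1. Cspg4 (NG2) of this list, which pericytes also express, had 84.7 CPM on day 6 against 35.1 CPM on day 1. Astrocyte markers summed to 137 CPM on day 6 and 87.2 CPM on day 1, with 163 CPM in sham. Their median ratio was -0.17 over 6 genes. Dendritic cell markers summed to 652 CPM on day 6, against 308 CPM on day 1 and 1752 CPM in sham. Most of that sum was Siglech, which microglia also express, with 490.0 CPM on day 6 against 144 CPM on day 1, and Fscn1 with 132 CPM on day 6 against 90.2 CPM on day 1. Markers of border-associated macrophages, which line vessels and meninges, summed to 1037 CPM on day 6 and 1002 CPM on day 1, mostly from the scavenger receptor gene Stab1, with 874 CPM on day 6 against 920.3 CPM on day 1. Their median ratio was 2.18 over 7 genes, and 2 of 5 considered genes stood at least 4-fold higher on day 6, with none 2-fold lower. Those were Siglec1, which interferon also raises, at 61.7 CPM on day 6 against 10.6 CPM on day 1, and the scavenger receptor gene Colec12 at 24.2 CPM on day 6 against 4.46 CPM on day 1. Mrc1 had a ratio of 0.08, and Lyve1 was 2.70 CPM on day 6 and 1.57 CPM on day 1.

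Genes of resting microglia stood higher on day 6, with most levels between those of day 1 and sham. Of 28 homeostatic genes 27 had a higher value on day 6, 14 by at least 2-fold and 6 by at least 4-fold, and none was lower by 2-fold. The median ratio of day 6 over day 1 was 1.08. Against sham the median was -0.91 on day 6 and -2.01 on day 1, so the list stayed below sham at both times. P2ry12 (chr3:59216272-59262871, minus strand), the ADP receptor that guides microglial processes to injury, had 1839 CPM on day 6 and 401 CPM on day 1, a 4.59-fold difference (interval 4.49 to 4.69), and 6022 CPM in sham. The Yy1flox/flox mice of day 6 had 1658 ± 149 CPM (SD, n = 3).

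Members of the list differed in how far they stood from sham. Sparc, a matrix protein gene that endothelium also expresses, had 1789 CPM on day 6 against 375 CPM on day 1, and 1822 CPM in sham, so day 6 and sham were close. Serpine2, a protease inhibitor gene, had 657 CPM on day 6 against 96.3 CPM on day 1 and was above its sham level of 403 CPM. Tmem119, a surface marker of microglia, had 398 CPM on day 6 against 172 CPM on day 1, and sham was at 1163 CPM. Cx3cr1, the fractalkine receptor gene, had 2164 CPM on day 6 against 1445 CPM on day 1, so it was within 2-fold between the days and under its sham level of 5027 CPM in both. The orphan receptor gene Gpr34 had a ratio of 2.51, the fructose transporter gene Slc2a5 2.13 and the crystallin gene Crybb1 2.39.

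The transcription factors of the lineage lay closer between the days. Their median ratio was 0.24, and 4 of 25 stood at least 2-fold higher on day 6. Sall1, which holds microglial identity, had 791 CPM on day 6 against 269 CPM on day 1. Maf stood at 318 CPM on day 6 against 150.4 CPM on day 1. The zinc finger gene Klf2, which endothelium also makes, had a ratio of 1.62, and Klf4 had 364 CPM on day 6 against 129 CPM on day 1. Spi1, which encodes PU.1, was at 86.7 CPM on day 6 and 108 CPM on day 1, and Irf8 at 279.7 CPM on day 6 against 210.3 CPM on day 1. The single member at least 4-fold lower was Cebpb, an inflammatory regulator, with 39.7 CPM on day 6 against 207 CPM on day 1 and 35.4 CPM in sham.

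Genes of disease-associated microglia, a state first described around amyloid plaques in mice, split by direction. Of 32 considered members 13 stood at least 2-fold higher on day 6 and 8 at least 2-fold lower. On the higher side were Apoe, Gpnmb, Cst7, Igf1 and Axl. Gpnmb, a glycoprotein gene of lipid-laden phagocytes, had 179 CPM on day 6 against 21.6 CPM on day 1, and 0.225 CPM in sham. Cst7, a cathepsin inhibitor gene, had 135 CPM on day 6 against 21.1 CPM on day 1. Igf1 (chr10:87858265-87937042, plus strand), the growth factor the study followed with its reporter mouse, had 231 CPM on day 6 against 41.2 CPM on day 1, 5.60-fold (interval 5.24 to 6.00). In the Yy1flox/flox mice of day 6 Igf1 was 153 ± 26.0 CPM (SD, n = 3), and in sham 2.36 CPM. The efferocytosis receptor gene Axl had 209.8 CPM on day 6 against 44.3 CPM on day 1.

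The lower side held Spp1, Lgals3, Lilrb4a, Lpl, Cybb and Fth1. Spp1 (chr5:104435118-104441050, plus strand), osteopontin, had 745 CPM on day 6 against 5915 CPM on day 1, 7.94-fold lower (interval 7.81 to 8.07), with 7.12 CPM in sham. In the other day 6 libraries it ranged widely, with 1442 ± 362 CPM in the Yy1flox/flox mice (SD, n = 3), 7628 CPM in EGFP+ cells and 399.5 CPM in EGFP- cells. Lgals3, galectin-3, had 24.8 CPM on day 6 against 169 CPM on day 1. Lpl, lipoprotein lipase, had 426 CPM on day 6 against 2001 CPM on day 1. On the higher side Trem2, the receptor upstream of this state, had 348 CPM on day 6 against 147 CPM on day 1. Clec7a, the beta-glucan receptor gene, also stood higher, at 213 CPM on day 6 against 106 CPM on day 1.

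**Figure D3:**
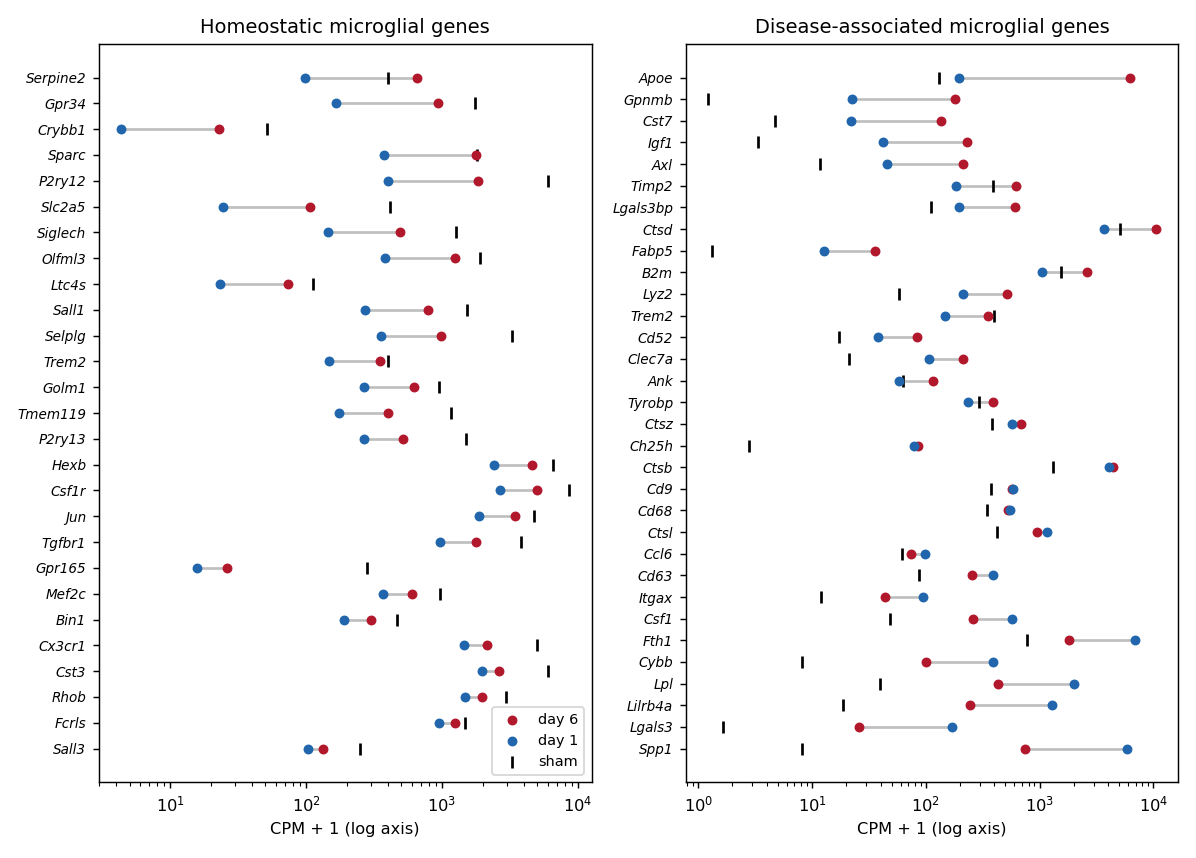
Considered members of the homeostatic list, with 1 not drawn, and of the disease-associated list. The horizontal axis is CPM + 1 on a log scale, red points are the day 6 library, blue points the day 1 library, and black ticks the sham library. Homeostatic genes lie mostly with day 6 to the right of day 1 and sham further right. The disease-associated genes run in both directions, from Apoe with a ratio of 4.98 to Spp1 with -2.99.

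Proliferation genes separated by phase. Mitosis genes, which act in the G2 and M phases, had a median ratio of 1.95 over 38 genes. Of 14 considered, 10 stood at least 4-fold higher on day 6. Several, such as Cenpf, Hmmr and Top2a, passed the 20 CPM minimum on day 6 only, and 26 members stayed below it. That count is therefore tilted toward genes high on day 6. Genes of DNA replication, which act in S phase, had a median of 0.16 over 30 genes. Of 11 considered, 1 was at least 2-fold higher, near the 8.61% of all considered genes. Mki67, the Ki-67 proliferation marker, had 296 CPM on day 6 against 43.6 CPM on day 1, 6.80-fold (interval 6.37 to 7.25), and 18.7 CPM in sham. The Yy1flox/flox mice of day 6 had 195 ± 37.9 CPM of it (SD, n = 3). Top2a, the topoisomerase of dividing cells, had 79.6 CPM on day 6 against 14.9 CPM on day 1. The spindle gene Hmmr had 26.1 CPM on day 6 against 1.88 CPM on day 1, Prc1 21.9 CPM on day 6 against 3.89 CPM on day 1, and cyclin A2 (Ccna2) 25.2 CPM on day 6 against 5.97 CPM on day 1.

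Most replication genes lay nearer to level, with a median ratio of 0.16 over 30 genes. Pcna, the sliding clamp, had 187 CPM on day 6 and 184 CPM on day 1. Subunits of the replicative helicase were close as well, with 20.1 CPM on day 6 against 24.3 CPM on day 1 for Mcm2, 19.3 CPM on day 6 against 18.6 CPM on day 1 for Mcm5, and 50.2 CPM on day 6 against 44.0 CPM on day 1 for Mcm6. Mcm2, Mcm5 and Mcm6 were above sham on both days, where they had 7.59, 5.40 and 14.2 CPM. The considered replication gene with a ratio of at least 1 in size was Rrm2, a ribonucleotide reductase subunit, with 20.9 CPM on day 6 against 5.19 CPM on day 1. The licensing factor gene Cdt1 had 11.8 CPM on day 6 and 23.9 CPM on day 1, a ratio of -0.96. Below 20 CPM, and named after their values were seen, the checkpoint adaptor gene Clspn had 12.9 CPM on day 6 against 1.90 CPM on day 1, and the thymidine kinase gene Tk1 had 15.0 CPM on day 6 against 6.34 CPM on day 1. Regulators of cell cycle entry and arrest had a median of 0.09. Cdkn1a (p21) had 28.1 CPM on day 6 against 77.2 CPM on day 1, Myc 71.5 CPM on day 6 against 156 CPM on day 1, Cdk6 45.4 CPM on day 6 against 111 CPM on day 1, and Mxd4, a MYC antagonist, 27.9 CPM on day 6 against 8.05 CPM on day 1. Vascular markers were also high in the day 6 library, and their part in the mitosis genes was not tested.

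**Figure D4:**
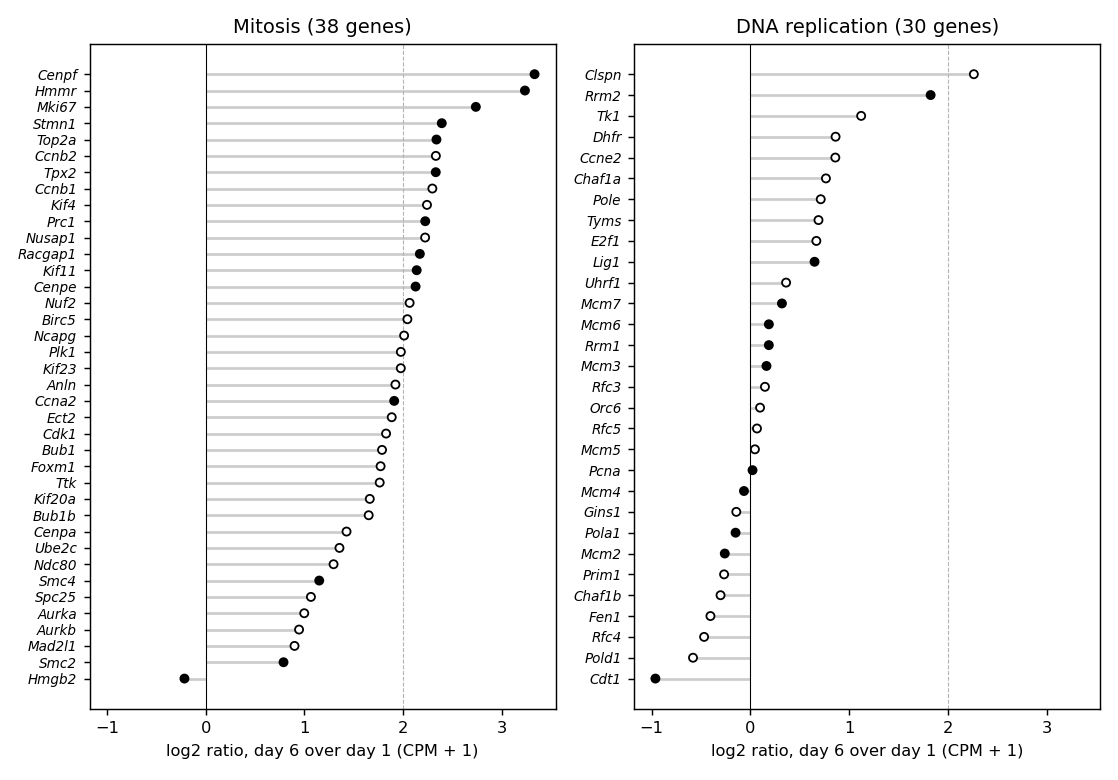
Log2 ratio of day 6 over day 1 (horizontal axis) for 38 mitosis and 30 DNA replication genes with at least 5 CPM in 1 of the 2 libraries. Filled points have at least 20 CPM, open points 5 to 20 CPM, and the dashed line marks a log2 ratio of 2. The mitosis genes centre on 1.95 and the replication genes on 0.16.

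Sequences before the start sites of mitosis genes are shown because this group stood apart from the replication group, and the known G2/M elements are short. The 250 bases before a RefSeq start (GRCm38.p6) of 3 of them follow, each 5′ to 3′ on the gene's strand. Prc1 has 2 listed starts, and the one whose window holds TTTGAA is shown. Capitals mark TTTGAA, the core of the cell cycle homology region (CHR), and CCAAT, on either strand.
Mki67 (chr7:135716380-135716629, minus strand): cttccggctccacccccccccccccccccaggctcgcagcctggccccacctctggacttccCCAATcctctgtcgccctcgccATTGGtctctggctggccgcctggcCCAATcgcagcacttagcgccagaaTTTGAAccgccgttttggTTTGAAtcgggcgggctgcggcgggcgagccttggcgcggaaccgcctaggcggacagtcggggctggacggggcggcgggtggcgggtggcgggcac
Top2a (chr11:99024190-99024439, minus strand): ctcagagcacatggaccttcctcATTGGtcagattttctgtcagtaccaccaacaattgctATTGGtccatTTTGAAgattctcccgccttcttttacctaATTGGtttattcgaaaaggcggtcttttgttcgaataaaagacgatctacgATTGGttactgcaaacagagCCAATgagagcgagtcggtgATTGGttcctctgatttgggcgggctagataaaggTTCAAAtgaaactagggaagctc
Prc1 (chr7:80294226-80294475, plus strand): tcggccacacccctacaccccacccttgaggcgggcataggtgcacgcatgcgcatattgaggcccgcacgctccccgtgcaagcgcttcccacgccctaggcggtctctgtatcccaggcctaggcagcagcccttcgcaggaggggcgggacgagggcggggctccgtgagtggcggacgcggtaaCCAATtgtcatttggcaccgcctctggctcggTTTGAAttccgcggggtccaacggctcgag
TTTGAA was present on either strand in the 250 bases of 12 of 33 mitosis genes with a RefSeq promoter (36.4%), 3 of 30 DNA replication genes (10%) and 18.3% of all 27025 genes with one. CCAAT was present in 26 of 33 mitosis genes (78.8%), 17 of 30 replication genes (56.7%) and 37.5% of all genes. A gene with several listed starts counted when any of them held the letters. Cenpf and Hmmr, with ratios of 3.33 and 3.23, held CCAAT but not TTTGAA, and Hmgb2, with -0.22, held both. These are letter matches and say nothing of binding.

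Inflammatory mediators stood lower on day 6 than on day 1. Of 15 considered genes of the IL-1 family and inflammatory cytokines, 5 were at least 2-fold lower and 1 at least 2-fold higher, with a median of -0.53. The lowest was Il1rn (chr2:24336853-24351494, plus strand), the antagonist that blocks the IL-1 receptor, with 8.47 CPM on day 6 against 395 CPM on day 1, 46.6-fold lower (interval 40.3 to 54.0). Its sham level was 0.656 CPM. The ligand Il1b had 20.1 CPM on day 6 against 83.7 CPM on day 1, and Il1a was within 2-fold at 135 CPM on day 6 against 185 CPM on day 1. The signalling receptor Il1r1, which endothelium also makes, was the 1 member at least 2-fold higher, at 100.1 CPM on day 6 against 35.4 CPM on day 1. The Yy1flox/flox mice of day 6 had 14.2 ± 5.74 CPM of Il1r1 (SD, n = 3). Tnf had 86.9 CPM on day 6 against 252 CPM on day 1, and oncostatin M (Osm) 51.7 CPM on day 6 against 209 CPM on day 1.

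Chemokine ligands had a median of -0.97, and 11 of 12 considered had a lower value on day 6. Cxcl2 and Cxcl3, which recruit neutrophils through CXCR2, stood lowest. Cxcl2 had 9.61 CPM on day 6 against 229 CPM on day 1, and Cxcl3 0.112 CPM (5 counts) against 20.1 CPM (994 counts), so the fold of Cxcl3 is poorly set. Ccl4 had 375 CPM on day 6 against 999.6 CPM on day 1, Ccl3 793 CPM on day 6 against 1554 CPM on day 1, and Ccl9 70.6 CPM on day 6 against 341 CPM on day 1. The monocyte attractant Ccl2 was nearly level at 149.7 CPM on day 6 and 173 CPM on day 1. Cxcl12, which vascular and stromal cells make, was the 1 considered ligand with a higher value on day 6, at 46.6 CPM on day 6 against 3.25 CPM on day 1.

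Among chemokine and anaphylatoxin receptors the median was -0.73. Ccr1 had 10.3 CPM on day 6 against 104 CPM on day 1, and the C5a receptor gene C5ar1 87.1 CPM on day 6 against 559 CPM on day 1. C3ar1 had 660.3 CPM on day 6 against 1457 CPM on day 1. NF-kB subunits and feedback genes had a median of -0.33, with 3 of 20 at least 2-fold lower, against 6.20% of all considered genes. The inhibitor gene Nfkbia was 454 CPM on day 6 and 569.5 CPM on day 1, Tnfaip3 (A20) 521 CPM on day 6 against 820.4 CPM on day 1, and the atypical regulator Bcl3 7.75 CPM on day 6 against 20.8 CPM on day 1. Toll-like receptor genes had a median of -0.01: Tlr2 was 414 CPM on day 6 and 503 CPM on day 1, and Tlr4 116 CPM on day 6 against 103 CPM on day 1. Their co-receptor Cd14 stood apart with 138 CPM on day 6 against 1732 CPM on day 1, 12.6-fold lower (interval 12.1 to 13.02), and 183 CPM in sham.

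Inhibitory and paired receptors were mixed, with a median of -0.47, which was 0.022 over members with at least 50 CPM. Lilr4b, an immunoglobulin-like receptor gene, was among the 12 lowest genes at 65.4 CPM on day 6 against 1363 CPM on day 1. The related Lilrb4a had 243 CPM on day 6 against 1282 CPM on day 1, and reads of near-identical paralogs may be split between these genes. Cd274 (PD-L1) had 28.5 CPM on day 6 against 154 CPM on day 1. Lair1, a collagen receptor gene, stood at 564 CPM on day 6 against 276 CPM on day 1.

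Interferon-stimulated genes stood higher on day 6. Of 30 considered, 16 were at least 2-fold higher and 1 at least 2-fold lower, with a median of 1.06. Slfn5, a Schlafen family gene, had 184 CPM on day 6 against 52.9 CPM on day 1, and 183 ± 34.3 CPM in the Yy1flox/flox mice (SD, n = 3). Ifit3, an antiviral RNA-binding protein gene, had 55.2 CPM on day 6 against 17.3 CPM on day 1, and the Yy1flox/flox mice had 65.5 ± 19.6 CPM. Oas2 and Oasl2, of the oligoadenylate synthetase family, had ratios of 2.06 and 1.70. The guanylate-binding protein gene Gbp2 had 30.8 CPM on day 6 against 10.3 CPM on day 1. Isg15 was low at 3.64 CPM on day 6 and 2.24 CPM on day 1. Against the list's direction, the chemokine Cxcl10 had 65.6 CPM on day 6 against 129.7 CPM on day 1.

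The interferon-stimulated response element is a short repeat of GAAA, and its core GAAANNGAA is in capitals, on either strand, in the 250 bases before the RefSeq starts of 3 members that stood higher on day 6. The sequences are 5′ to 3′ on the gene's strand (GRCm38.p6).
Ifit3 (chr19:34583279-34583528, plus strand): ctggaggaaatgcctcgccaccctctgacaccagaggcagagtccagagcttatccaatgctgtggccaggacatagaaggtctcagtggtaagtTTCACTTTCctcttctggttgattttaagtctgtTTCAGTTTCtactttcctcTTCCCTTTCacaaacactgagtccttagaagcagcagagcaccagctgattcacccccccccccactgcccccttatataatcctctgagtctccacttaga
Slfn5 (chr11:82951852-82952101, plus strand): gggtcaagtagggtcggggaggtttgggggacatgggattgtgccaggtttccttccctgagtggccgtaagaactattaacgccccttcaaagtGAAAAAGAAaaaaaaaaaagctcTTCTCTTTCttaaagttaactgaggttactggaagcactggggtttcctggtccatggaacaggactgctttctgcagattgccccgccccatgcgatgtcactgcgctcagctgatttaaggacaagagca
Gbp2 (chr3:142620413-142620662, plus strand): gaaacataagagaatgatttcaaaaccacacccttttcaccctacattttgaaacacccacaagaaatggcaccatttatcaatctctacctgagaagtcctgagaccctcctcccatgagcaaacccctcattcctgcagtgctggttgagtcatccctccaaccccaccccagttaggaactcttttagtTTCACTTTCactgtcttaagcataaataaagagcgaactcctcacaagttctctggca
The motif was present in 14 of 26 interferon-stimulated genes with a RefSeq promoter (53.8%) and in 8.18% of all 27025 genes with one. Ifi44, Oasl2 and Ifit2, with ratios of 2.69, 1.70 and 1.64, did not hold it. Of members with a lower value on day 6, Cxcl10 and Rsad2 held it, and Slfn2, Oasl1 and Ifi35 did not.

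MHC class I genes had a median of 0.55, and 4 of 16 considered stood at least 2-fold higher on day 6. B2m, the light chain of class I, had 2592 CPM on day 6 against 1045 CPM on day 1, and the heavy chain H2-K1 648 CPM on day 6 against 306 CPM on day 1. Class I heavy chains are near-identical, so reads may be split between them. Of 10 considered class II genes 5 had a higher and 5 a lower value on day 6, with a median of -0.50 over 12 genes. Their summed level was 3637 CPM on day 6 and 2541 CPM on day 1, most of it from the protease gene Ctss with 2916 CPM on day 6 against 1626 CPM on day 1. Cd74, the invariant chain, had 78.3 CPM on day 6 against 158 CPM on day 1, H2-Aa 40.5 CPM on day 6 against 69.6 CPM on day 1 and H2-Eb1 16.6 CPM on day 6 against 35.4 CPM on day 1. On the same list H2-Ob, part of an inhibitor of peptide loading, was at least 2-fold higher, at 23.2 CPM on day 6 against 5.81 CPM on day 1.

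The antioxidant response stood lower on day 6. Of 24 considered genes of the NADPH oxidase and the antioxidant response, 12 were at least 2-fold lower, 6 of them at least 4-fold, none was 2-fold higher, and the median was -0.77. Besides Slc7a11 these included Srxn1, which repairs oxidised peroxiredoxins, with 7.68 CPM on day 6 against 108 CPM on day 1. Txnrd1, thioredoxin reductase, had 37.5 CPM on day 6 against 157 CPM on day 1. Gclm, the regulatory subunit of glutathione synthesis, had 16.5 CPM on day 6 against 65.5 CPM on day 1, and 17.3 CPM in sham. The metal-binding metallothionein genes Mt2 and Mt1 had 13.9 and 114 CPM on day 6, against 186 and 518 CPM on day 1. In the oxidase itself, the catalytic subunit gene Cybb had 99.5 CPM on day 6 against 385 CPM on day 1, while the cytosolic subunit gene Ncf1 had 424 CPM on day 6 against 251 CPM on day 1.

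Iron genes were low with them. Of 15 considered, 10 stood at least 2-fold lower on day 6, with a median of -1.21. Hmox1, heme oxygenase, had 75.4 CPM on day 6 against 391 CPM on day 1, with 61.2 CPM in sham and 83.4 ± 9.13 CPM in the Yy1flox/flox mice (SD, n = 3). The ferritin chains Fth1 and Ftl1 had 1806 and 681 CPM on day 6, against 6871 and 1419 CPM on day 1. The importers Tfrc and Slc39a14 stood lower, with ratios of -1.52 and -2.40. The exporter ferroportin (Slc40a1) ran the other way at 118 CPM on day 6 and 69.9 CPM on day 1, as did ceruloplasmin (Cp) at 155 CPM on day 6 against 78.6 CPM on day 1.

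Several of these genes are known targets of the factor NRF2, whose antioxidant response element has the core TGACNNNGC. The 250 bases before the RefSeq starts of Txnrd1, Gclm and Mt2 are shown with that core in capitals on either strand, 5′ to 3′ on the gene's strand (GRCm38.p6). Txnrd1 has 3 listed starts, and the one holding the letters is shown. This motif was chosen after the values were seen.
Txnrd1 (chr10:82858956-82859205, plus strand): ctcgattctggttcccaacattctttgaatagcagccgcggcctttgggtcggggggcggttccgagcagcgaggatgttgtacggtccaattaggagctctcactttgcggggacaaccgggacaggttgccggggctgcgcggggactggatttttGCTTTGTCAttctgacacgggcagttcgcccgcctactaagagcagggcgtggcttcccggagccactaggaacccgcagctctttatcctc
Gclm (chr3:122245307-122245556, plus strand): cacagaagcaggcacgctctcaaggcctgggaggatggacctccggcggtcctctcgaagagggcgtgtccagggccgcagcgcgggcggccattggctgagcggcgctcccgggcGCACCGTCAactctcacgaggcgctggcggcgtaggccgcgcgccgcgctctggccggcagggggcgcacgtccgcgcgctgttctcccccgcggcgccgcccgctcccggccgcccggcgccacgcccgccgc
Mt2 (chr8:94172368-94172617, plus strand): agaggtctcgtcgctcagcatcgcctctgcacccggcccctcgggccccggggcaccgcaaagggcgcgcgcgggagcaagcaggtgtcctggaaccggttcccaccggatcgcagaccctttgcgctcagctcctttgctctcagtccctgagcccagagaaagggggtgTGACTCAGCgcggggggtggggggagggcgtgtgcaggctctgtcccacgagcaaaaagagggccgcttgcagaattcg
The core was present in 6 of 19 genes of this list with a RefSeq promoter (31.6%) and in 11.5% of all 27025 genes with one. Besides those shown, the holders were Prdx1, Sod1 and Nfe2l2, with ratios of -1.49, 0.57 and -0.17. Slc7a11 and Srxn1, with ratios of -6.20 and -3.65, did not hold it.

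Genes that build ribosomes and genes of the ribosome's own proteins differed in their ratios. Every one of the 30 considered genes of ribosome biogenesis had a lower value on day 6, 21 by at least 2-fold, and the median was -1.12. The E-box CACGTG, which MYC binds, was present in the 250 bases before the starts of 2 of 31 of these genes with a RefSeq promoter (6.45%) and in 6.86% of all 27025 genes with one. Mybbp1a, a nucleolar regulator, had 76.1 CPM on day 6 against 248 CPM on day 1. Nop56 and Nop58, core proteins of the methylation complex, had 48.4 and 44.2 CPM on day 6, against 139 and 135 CPM on day 1. Nucleolin (Ncl) and nucleophosmin (Npm1) were within 2-fold, with ratios of -0.71 and -0.68. The 72 considered ribosomal protein genes had a median of 0.10, with none past 2-fold in either direction. Rps6 had 269 CPM on day 6 and 259.8 CPM on day 1. Ribosomal protein genes have many processed pseudogenes, so their counts depend on how multiply mapped reads were handled.

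Chaperone and stress genes stood lower as well. Heat shock chaperones had a median of -0.68, and 20 of 22 considered had a lower value on day 6. Hspa1a, the inducible HSP70 gene, had 164 CPM on day 6 against 375 CPM on day 1 with 284 CPM in sham, and the mitochondrial chaperone gene Hspa9 121 CPM on day 6 against 320.0 CPM on day 1. Genes of the integrated stress and unfolded protein responses had a median of -0.65, with 10 of 26 at least 2-fold lower. Hspa5, the chaperone BiP, had 1085 CPM on day 6 against 2444 CPM on day 1, and Mthfd2 of the folate cycle 10.2 CPM on day 6 against 44.3 CPM on day 1. Atf4, a factor that drives the integrated stress response, was within 2-fold at 235 CPM on day 6 and 347 CPM on day 1.

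**Figure D5:**
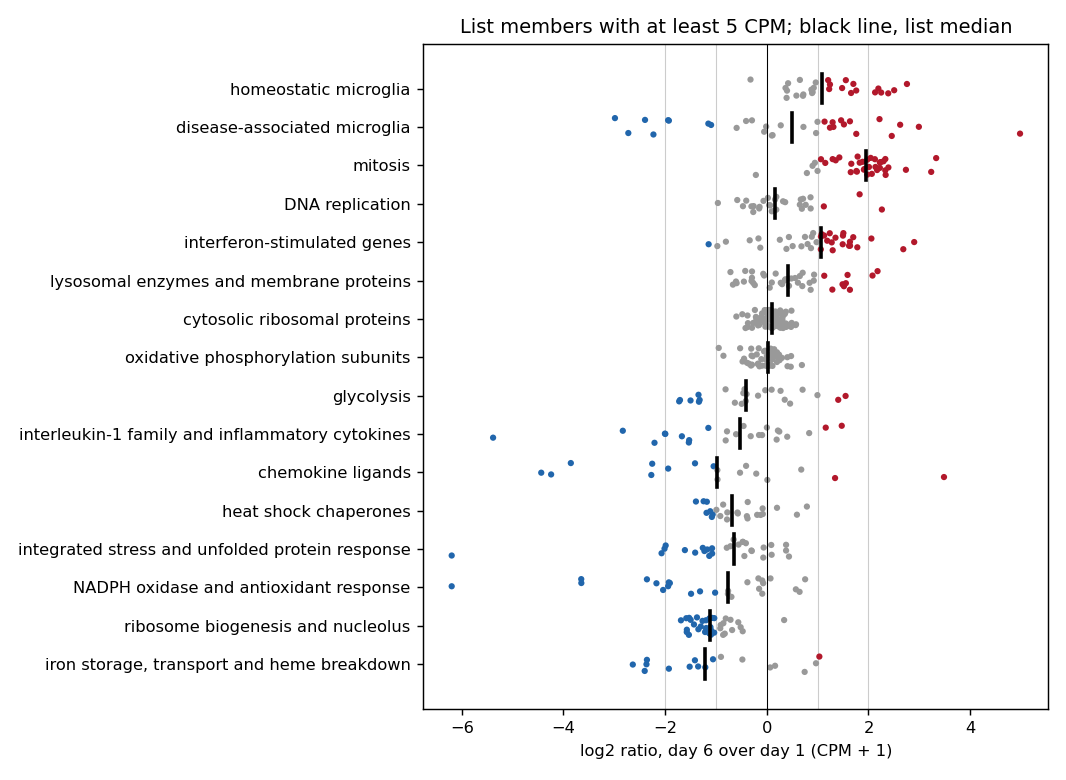
Log2 ratio of day 6 over day 1 (horizontal axis) for the members with at least 5 CPM of 16 gene lists. Each point is a gene, red at 1 or above and blue at -1 or below, and the black line is the list's median. Mitosis and homeostatic genes centre at 1.95 and 1.08, ribosome biogenesis and iron genes at -1.12 and -1.21, and oxidative phosphorylation at 0.02.

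Energy metabolism showed a lower glycolytic side and a level mitochondrial side. Glycolysis genes had a median of -0.41, with 5 of 21 considered at least 2-fold lower on day 6 and 2 at least 2-fold higher. Over all considered genes these shares were 6.20% and 8.61%. Pkm, pyruvate kinase, had 349.9 CPM on day 6 against 992 CPM on day 1, Pgk1 63.4 CPM on day 6 against 162 CPM on day 1, and the platelet-type phosphofructokinase Pfkp 9.09 CPM on day 6 against 32.0 CPM on day 1. Hexokinase 2 (Hk2) was 313 CPM on day 6 and 227 CPM on day 1, and lactate dehydrogenase A (Ldha) 187 CPM on day 6 against 211 CPM on day 1. The glucose transporter Slc2a1, which endothelium of the brain makes at high level, stood higher at 481 CPM on day 6 against 164 CPM on day 1, and the Yy1flox/flox mice of day 6 had 169.8 ± 14.6 CPM (SD, n = 3). The 44 considered genes of oxidative phosphorylation had a median of 0.02 and none was past 2-fold.

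Hypoxia genes had a median of 0.14 and no common direction. Vegfa, the vascular growth factor, had 3.98 CPM on day 6 against 39.6 CPM on day 1. Pdk1, a kinase gene whose product inhibits pyruvate dehydrogenase, had 110.2 CPM on day 6 against 41.0 CPM on day 1. Ndrg1 had 98.7 CPM on day 6 against 37.1 CPM on day 1. Hif1a was 612 CPM on day 6 and 516 CPM on day 1. Epas1, the endothelial-rich HIF-2alpha gene, was 724 CPM on day 6 and 222 CPM on day 1, with 164 ± 29.2 CPM in the Yy1flox/flox mice. The hypoxia response core ACGTG was found before the starts of 11 of 18 hypoxia genes (61.1%) and 12 of 24 glycolysis genes (50.0%) with a RefSeq promoter, against 18.5% of all genes.

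Lipid genes were divided. Among 23 considered, 5 stood at least 2-fold higher on day 6 and 5 at least 2-fold lower. Beside Apoe, the phospholipid transfer protein gene Pltp had 74.2 CPM on day 6 against 13.5 CPM on day 1, and the fatty acid binding protein gene Fabp5 34.5 CPM on day 6 against 11.9 CPM on day 1. Lower were the uptake receptors Cd36 with 13.3 CPM on day 6 against 92.8 CPM on day 1 and Vldlr with 5.47 CPM on day 6 against 26.2 CPM on day 1. The sterol exporters Abca1 and Abcg1 had 1967 and 299 CPM on day 6, against 2211 and 202 CPM on day 1. Cholesterol synthesis genes had a median of -0.45, with 10 of 13 lower in value.

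Scavenger and phagocytic receptors differed by kind. Msr1, the class A scavenger receptor, had 54.3 CPM on day 6 against 755 CPM on day 1, 13.9-fold lower (interval 13.1 to 14.7), and 2.17 CPM in sham. Marco, a related receptor gene, had 0 counts on day 6 and 5.39 CPM on day 1. Cd5l had 47.2 CPM on day 6 and 3.77 CPM on day 1, but 3.84 ± 1.17 CPM in the Yy1flox/flox mice. The HDL receptor gene Scarb1 had 70.6 CPM on day 6 against 22.4 CPM on day 1. Genes for uptake of apoptotic cells had a median of 0.63, with 4 of 16 at least 2-fold higher on day 6 and 1 at least 2-fold lower. Mertk, the partner of Axl among the TAM receptors, had 671 CPM on day 6 and 418 CPM on day 1, and the integrin gene Itgb5 693 CPM on day 6 against 271 CPM on day 1.

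Lysosomal genes had a median of 0.43, and 8 of 40 considered stood at least 2-fold higher, with none 2-fold lower. Ctsd, the aspartic protease cathepsin D, had 10547 CPM on day 6 against 3683 CPM on day 1, and 6312 ± 586 CPM in the Yy1flox/flox mice (SD, n = 3). Progranulin (Grn) had 1973 CPM on day 6 against 655 CPM on day 1, Hexa 416 CPM on day 6 against 133 CPM on day 1, and Ctsf 89.5 CPM on day 6 against 20.4 CPM on day 1. The cathepsin genes Ctsb and Ctsl were near level. Ctsb had 4397 CPM on day 6 and 4107 CPM on day 1, and Ctsl 956 CPM on day 6 against 1171 CPM on day 1. Complement genes had a median of 0.19. The C1q chain genes C1qa, C1qb and C1qc had ratios of 1.14, 0.78 and 1.04, C4b had 75.6 CPM on day 6 against 19.1 CPM on day 1, and C3 was level at 47.8 CPM on day 6 against 52.3 CPM on day 1. Of the Fc and ITAM genes, the adaptor Tyrobp had 388 CPM on day 6 and 235 CPM on day 1. Clec4e, the Mincle receptor gene and also a monocyte marker, was among the 12 lowest genes, with 1.18 CPM on day 6 against 35.9 CPM on day 1.

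Several proteases of the tissue matrix stood far lower on day 6. Of 19 considered genes of extracellular proteolysis, 6 were at least 4-fold lower and 1 at least 4-fold higher, with a median of -0.92. Mmp12, macrophage elastase, had 14.1 CPM on day 6 against 651 CPM on day 1, 46.3-fold lower (interval 41.5 to 52.0), with 1.59 CPM in sham. Adam8, a sheddase of inflammatory leukocytes, had 24.9 CPM on day 6 against 813 CPM on day 1. Mmp8 and Mmp9 of this list are also neutrophil markers, with 3.80 and 2.55 CPM on day 6, against 42.3 and 31.3 CPM on day 1. The tissue inhibitor Timp2 stood higher at 621 CPM on day 6 against 183 CPM on day 1, and Timp3 at 178 CPM on day 6 against 75.3 CPM on day 1. The matrix proteoglycan Vcan, on the monocyte list, had 2.50 CPM on day 6 and 128 CPM on day 1, 51.3-fold lower (interval 39.4 to 68.1). A2m, a protease trap outside these lists, had 4.91 CPM on day 6 against 83.0 CPM on day 1, and was at 0 in all 3 Yy1flox/flox libraries.

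Growth factors went in both directions, with 3 of 11 considered at least 4-fold higher on day 6 and 3 at least 4-fold lower. The higher ones were Igf1, Wnt5a at 21.9 CPM on day 6 against 2.18 CPM on day 1, and pleiotrophin (Ptn) at 30.0 CPM on day 6 against 3.59 CPM on day 1. Ptn was 1.61 ± 1.64 CPM in the Yy1flox/flox mice (SD, n = 3). The lower ones were Vegfa, the stress cytokine Gdf15 with 2.61 CPM on day 6 against 32.8 CPM on day 1, and Igf2 with 12.5 CPM on day 6 against 121 CPM on day 1. Igf2 is made by the choroid plexus and stands on that list. In the IGF axis the receptor gene Igf1r was level, 149 CPM on day 6 and 149 CPM on day 1, while Igf2r had 64.7 CPM on day 6 against 240.1 CPM on day 1. Igfbp7, which vessels also make, had 194 CPM on day 6 against 68.0 CPM on day 1. Receptor genes of the colony-stimulating factors differed in direction: Csf1r had 4998 CPM on day 6 against 2676 CPM on day 1, and Csf2rb 127 CPM on day 6 against 267 CPM on day 1.

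TGF-beta genes had a median of 0.22. The receptor genes Tgfbr1 and Tgfbr2 had 1786 and 799 CPM on day 6, against 972 and 398 CPM on day 1. The ligand Tgfb1 had 220.3 CPM on day 6 and 158 CPM on day 1. Ltbp4, a latent TGF-beta binding protein, stood at 101 CPM on day 6 against 12.95 CPM on day 1, with 21.7 ± 7.57 CPM in the Yy1flox/flox mice. The induced matrix gene Tgfbi was lower at 64.4 CPM on day 6 against 455 CPM on day 1. Adhesion and migration genes had a median of -0.19. The hyaluronan receptor Cd44 had 48.6 CPM on day 6 against 347 CPM on day 1, and the fibronectin receptor gene Itga5 82.6 CPM on day 6 against 372 CPM on day 1. Vim, the vimentin gene, was 585 CPM on day 6 and 565 CPM on day 1, and 20.9 CPM in sham.

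Genes of lipid mediators and purine signalling differed by enzyme and receptor. Cyclooxygenase 1 (Ptgs1) had 378 CPM on day 6 against 192 CPM on day 1, whereas the inducible cyclooxygenase 2 (Ptgs2) had 165 CPM on day 6 against 524 CPM on day 1. The leukotriene synthase gene Ltc4s had 72.2 CPM on day 6 against 22.2 CPM on day 1. The ectonucleotidase gene Entpd1 (CD39) had 487 CPM on day 6 against 185 CPM on day 1. The nucleotide receptor gene P2ry6, linked to phagocytosis, was 167 CPM on day 6 and 186 CPM on day 1.

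Immediate early genes, which tissue digestion is known to induce, were present at high level on both days and had a median of 0.34. Fos had 1762 CPM on day 6 and 985 CPM on day 1, Egr1 1425 CPM on day 6 against 1271 CPM on day 1, and Jun 3460.0 CPM on day 6 against 1865 CPM on day 1. Fosb was the 1 member past 4-fold, with 675 CPM on day 6 against 137 CPM on day 1. Genes of quiescence and mRNA decay had a median of 0.59, with 5 of 20 considered at least 2-fold higher and none 2-fold lower. Foxo1 had 107 CPM on day 6 against 42.6 CPM on day 1, and Tsc22d3, a glucocorticoid target, 280.2 CPM on day 6 against 101 CPM on day 1. Among other steroid-responsive genes Fkbp5 was 120.1 CPM on day 6 and 87.3 CPM on day 1, and Sgk1 1613 CPM on day 6 against 1824 CPM on day 1. The p53 list had a median of 0.00.

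Clock genes, a list chosen after its values were seen, differed in a set of output factors. Hlf and Per3 stood at least 4-fold higher on day 6, with 33.2 CPM on day 6 against 4.28 CPM on day 1 and 42.4 CPM on day 6 against 8.96 CPM on day 1. Tef and Nr1d2 had ratios of 1.71 and 1.54. Nfil3, which competes with the PAR-domain factors HLF and TEF for the same sites, had 12.5 CPM on day 6 against 109 CPM on day 1. Clock itself was 113 CPM on day 6 and 148 CPM on day 1, and Arntl (BMAL1) 8.38 CPM on day 6 against 10.6 CPM on day 1. The labels give no time of day, so hour of sampling and day after stroke cannot be told apart.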

How the data were processed

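Microglia were sorted from perfused, enzyme-digested forebrain after a Percoll gradient, and Ovation SoLo libraries were read on a HiSeq sequencer, per the labels' protocols. STAR, featureCounts, edgeR, mm10 and GRCm38 are named in the submitters' processing notes, with no role for each. Values of the time-course table are whole-number counts of reads, deposited by the authors without scaling. Most of its low counts are even (75.8% of those between 1 and 20 on day 6, 74.8% on day 1), so intervals were computed on counts divided by 2. The Yy1 table held expected counts as deposited by the authors, which were rounded and scaled within that table, so levels set across tables are side by side only.

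Counts were scaled to CPM by TMM (edgeR 4.0.16, R 4.3.3) over the 7 libraries of the time-course table. Rn45s, a ribosomal RNA precursor gene, took 9.38% of the counts on day 6 and 10.8% on day 1. Ratios used a pseudocount of 1 CPM, and genes needed 20 CPM in 1 library to be counted. With 1 library per day no model was fitted and no p-value is given. The fold calculation was tested on simulated data. Named genes were the 12 highest and 12 lowest ratios, the core members of each list and up to 6 further members with the largest ratio in size, and the members of fixed pairs. The lists were chosen with earlier results of these data known, and 3 of them (choroid plexus, further endothelial genes, clock) after the values here were seen. Promoters are from RefSeq (GRCm38.p6), matched by symbol. Day 14 EGFP libraries were not used here. Values of some genes that the naming rule covers are not reported here.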

Additional observations from a re-analysis of the deposited data

How the results depend on the processing

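No paired analysis was possible because each day had 1 library, and for the same reason no replicate could be left out. Against the main counts of 163 genes at least 4-fold higher and 116 at least 4-fold lower (623 and 449 at 2-fold), a minimum of 5 CPM gave 262 and 194 (1047 and 742 at 2-fold), one of 50 CPM gave 78 and 69 (352 and 280), and no minimum gave 267 and 205 (1338 and 1014). A pseudocount of 5 CPM left 89 genes at least 4-fold higher. Scaling by DESeq2's size factors, by total counts or by TMM over the 2 libraries alone gave 165 to 169 genes higher and 112 to 121 lower, with the median ratio of the considered genes moved by 0.01 or less, except by -0.024 under total counts. Median ratios of some lists turned with the genes allowed. At 50 CPM they were 0.022 for paired and inhibitory receptors, -0.036 for steroid-responsive genes, -0.87 for growth factors, 0.47 for prostanoid enzymes and 1.42 for astrocyte markers. With no minimum they were -0.21 for growth factors, -0.50 for dendritic cells and 0.067 for astrocytes. With at least 10 counts in both libraries and 20 CPM in 1 they were -0.59 for growth factors and 1.26 for astrocytes. The cause is the change in which members enter, and these lists should be read as having no set direction. No named gene with a ratio of 1 or more in size turned under another scaling. A pseudocount cannot turn a sign. Of the 605 named genes, 159 moved by 0.25 or more at a pseudocount of 5 CPM and 62 at 0.25 CPM.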

Other observations

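Some related genes differed in direction between the days, and their values are given side by side with no test. The lactate dehydrogenase genes Ldha and Ldhb had ratios of -0.17 and 1.00, and the phosphofructokinase genes Pfkp and Pfkm -1.71 and 0.35. The tissue inhibitor genes Timp1 and Timp2 had ratios of -1.07 and 1.76, with Timp1 at low level. The Fc gamma receptor genes Fcgr4 and Fcgr1 had ratios of -0.73 and 0.33, and the TGF-beta ligand genes Tgfb2 and Tgfb1 -0.70 and 0.48. Both arginase genes had lower values on day 6. Arg1, a marker of alternatively activated macrophages in mice, is also one of the monocyte markers used here. Its level was 0.938 CPM on day 6 and 17.4 CPM on day 1. Arg2 had 1.14 CPM on day 6 and 2.54 CPM on day 1.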
